A study of Mus musculus with 56 samples.

Results

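The data compared regulatory T cells (Tregs, the suppressive CD4 lineage defined by the transcription factor Foxp3) of visceral adipose tissue (VAT) after 16 weeks on either of 2 diets, abbreviated HFD and NCD. The libraries were chosen by title, as all VAT Treg libraries of week 16: HFD replicates 1, 2 and 3 and NCD replicates 2 and 3, which are 5 of the 56 libraries of the series. Mice of both arms were of strain C57BL/6 and genotype vTreg53 Tg+, that is, they carried a transgenic T cell receptor, and the diets began at 12 weeks of age. Each library held RNA of 1000 Tregs that were sorted in 2 rounds for the transgenic receptor (the clonotype), so Tregs with other receptors were not sampled in either arm. The protocol speaks of recipient mice without saying what they had received, and the labels do not tie a library to an animal. The p-values therefore rest on the spread between libraries of the same tissue, week and diet, which may be technical. Spleen Tregs of the same genotype, diets and week, 3 libraries per diet, served for a comparison between tissues. These libraries were taken as spleen from their titles (Sp), while their tissue label reads visceral adipose tissue, so the comparison rests on the titles. The other 20 VAT libraries of the genotype entered the fit only to estimate the spread.

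VAT Tregs are a tissue-adapted population. In lean mice they are known for the nuclear receptor PPARγ, the IL-33 receptor ST2 (encoded by Il1rl1), the tissue-repair factor amphiregulin and high IL-10, whereas resting Tregs of lymphoid organs express the homing receptor CCR7 and the transcription factors TCF1 and LEF1. Interferons signal through STAT and IRF factors to raise antiviral genes and, most strongly for interferon-γ, the guanylate-binding proteins and immunity-related GTPases. Sterol synthesis and uptake are controlled together by the transcription factor SREBP2, which is active when cell sterol is low.

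Total counts were 5791454 and 5004093 in NCD replicates 2 and 3 and 5659625, 5835831 and 4225520 in HFD replicates 1, 2 and 3, and all values below are given in that order, as CPM (counts scaled to library size) of NCD against HFD. The floor used here is 3 counts, which equalled 0.497 to 0.675 CPM, a bound on counting error only. Mitochondrial genes took 0.844 to 1.21% of counts. The transgenic clonotype showed in the receptor segments: Trbv2 made up 76.3 to 89.5% of all Trbv counts and Trav14n-3 made up 60.3 to 80.9% of all Trav counts in the 5 libraries. Foxp3 stood at 1102 and 953 CPM with NCD and at 966, 1007 and 872 with HFD, with overlapping arms. Changes are log2 fold changes ± SE, HFD minus NCD, from edgeR's quasi-likelihood test, and a call means an adjusted p (Benjamini-Hochberg, over all genes tested) under 0.05.

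HFD changed 1309 of 14164 tested genes (9.24%), with 611 higher (4.31%) and 698 lower (4.93%) than with NCD. Of these, 725 changed at least 2-fold, 408 upward and 317 downward, and 1300 had no overlap between the arms. Arms that did not overlap were common among all tested genes too, with HFD above NCD in 18.7% and below in 18.1%. The median log2 fold change of all tested genes was 0.024. At an unadjusted p under 0.05 there were 3072 genes, against 708.2 expected with no effect. The genes with the smallest p among the falling ones included Nhsl2, at 49.1 and 59.5 CPM with NCD and 5.40, 4.97 and 3.15 with HFD, a log2 fold change of -3.56 ± 0.29 (edgeR adjusted p = 1.70e-08). Septin11, which encodes a filament-forming septin, was at 632 and 644 CPM with NCD and 196, 270.1 and 151 with HFD and fell by 1.63 ± 0.16. Plec, the gene of the linker protein plectin, was at 1022 and 994 against 374, 451 and 356 CPM and fell by 1.36 ± 0.14. Tuba1a, an α-tubulin gene, Map4, a microtubule-associated protein gene, and Coro1c, a coronin gene, fell by 1.34 ± 0.15, 1.04 ± 0.12 and 1.09 ± 0.13. Akap7, which encodes an anchor for protein kinase A, fell by 2.17 ± 0.25, and Capn2, a calpain protease gene, and Sytl2, a vesicle-trafficking gene, by 1.36 ± 0.17 and 1.03 ± 0.12.

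Among the rising genes, Ctss, which encodes cathepsin S, the protease that trims the MHC class II invariant chain, was at 33.4 and 21.6 CPM with NCD and 393, 240.3 and 340.0 with HFD. Limd2 was at 256 and 209 CPM with NCD and 682, 596 and 622 with HFD and rose by 1.44 ± 0.15 (edgeR adjusted p = 4.21e-07). Every HFD library was more than 2-fold above both NCD libraries for these genes. Trf, the transferrin gene, was at 15.5 and 13.5 against 107, 126 and 85.5 CPM and rose by 2.87 ± 0.34. Ms4a6b, a membrane protein gene of Tregs, was at 211 and 187 against 632, 535 and 877 CPM and rose by 1.77 ± 0.19. Ipcef1 rose by 1.79 ± 0.23, and Clec2i, a C-type lectin gene, from 2.68 and 2.08 to 61.7, 34.1 and 79.8 CPM (4.60 ± 0.60, a size that rests on few NCD counts). Ctss stood apart from most of its family. Of 19 tested cathepsin and lysosome genes, 2 rose and 4 fell: besides Ctss, Ctsw (cathepsin W of cytotoxic lymphocytes) rose from 10.7 and 12.3 to 113, 31.3 and 47.2 CPM (2.47 ± 0.64), while Ctsh, Ctsd, Ctsc and the inhibitor gene Cst3 fell by 1.22 ± 0.22, 0.68 ± 0.15, 0.47 ± 0.15 and 0.68 ± 0.17. Left out singly, NCD replicate 2 ended the calls of Ctsw (2.36), Ctsc (-0.41) and Cst3 (-0.60), NCD replicate 3 ended the calls of Ctsw (2.57) and Ctsc (-0.55), HFD replicate 1 ended the call of Ctsw (1.76), HFD replicate 2 ended the call of Ctsc (-0.37) and HFD replicate 3 ended that of Ctsc (-0.50). In a fit of the compared libraries alone Ctsd and Ctsc lost their calls; with no filter Ctsw and Ctsc lost their calls.

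**Figure D1:**
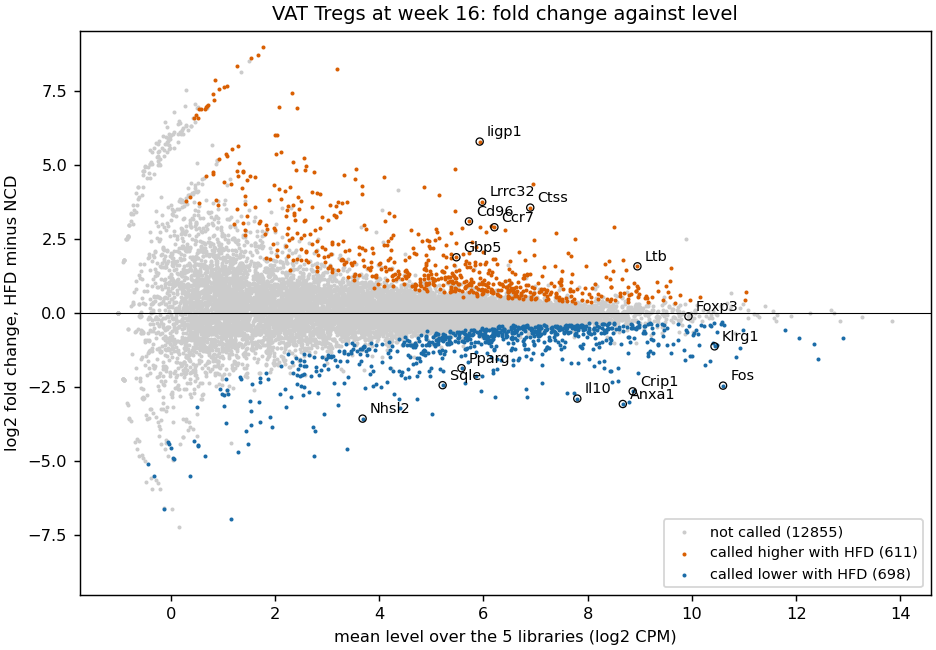
Each point is 1 of 14164 tested genes, placed by its mean level over the 5 libraries (log2 CPM) and its log2 fold change, HFD minus NCD; called genes are coloured by direction and 16 genes are labelled. The 611 rising and 698 falling genes spread over the whole range of levels, with Ltb among the abundant rising genes and Fos, Klrg1 and Anxa1 among the abundant falling ones, while Foxp3 lies at the zero line.

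The HFD libraries were not alike in how far they stood from NCD. Of the 611 rising genes, HFD replicate 2 was nearest to NCD in 275 and farthest in 96, whereas replicates 1 and 3 were farthest in 243 and 272. Of the 698 falling genes, replicate 2 was nearest in 363, and replicates 1 and 3 were farthest in 319 and 259. Over single genes, libraries of different arms differed more (chi-square per gene 29.3 to 48.8 for a pair) than libraries of one arm (9.94 between the NCD libraries and 11 to 20.1 between HFD libraries). Both NCD libraries mattered for the count: without NCD replicate 2, edgeR called 671 genes, and without NCD replicate 3 it called 643. Fits with a covariate called fewer genes. Genes induced within minutes of activation and B cell and MHC class II genes moved with diet in the same libraries. With the mean of the AP-1, Nr4a and Egr, heat shock and rapid feedback genes as a covariate (the activation-gene covariate below) the count was 431, and with the mean of the B cell and MHC class II genes (the B cell and MHC class II covariate) it was 125. Both means differed between the arms, so these fits also take up part of the diet contrast. Of the genes whose change is given here, 105 lost their call with the latter and 63 with the former.

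The clearest group to rise was the interferon-inducible GTPases, the guanylate-binding proteins (GBPs) and immunity-related GTPases (IRGs) that attack the vacuoles of intracellular pathogens. Of 17 tested members 16 rose and none fell, with a median of 1.64 beside 0.024 for all genes; Gbp11, at 1.07 and 0 against 0, 0.497 and 3.15 CPM, was the only member that did not pass. In GRCm38.p6 (mm10) the members lie in 4 blocks, apart from 1 single gene. The block chr3:142496934-142638008 holds Gbp5, Gbp7, Gbp3 and Gbp2, all of which rose. At chr5:105012513-105346476 lie Gbp8, Gbp9, Gbp4, Gbp10, Gbp6 and Gbp11, of which 5 of 6 rose. Irgm1, Tgtp1, Tgtp2 and Ifi47 lie at chr11:48865245-49096987 and Igtp and Irgm2 at chr11:58199556-58222783, and all of them rose, as did Iigp1, which lies elsewhere. Members of these families resemble each other in sequence, and the treatment of ambiguous reads was not described in the labels, so the split between neighbours is uncertain.

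The promoters of GTPase genes are shown because the members rose together and because the 2 classical interferon motifs could be searched in them. RefSeq promoter windows (GRCm38.p6, 250 bases before to 50 after the start, 300 bases in all) matched 10 of the 17 genes. The core of the interferon-stimulated response element (ISRE, searched on both strands as GAAA, any 2 bases and GAAA) was in the window of 9 of 10, Ifi47 being the one without it, and in 3.44% of all 32851 windows. The γ-activated site, bound by STAT dimers (GAS, searched as TTCNNNGAA, which reads alike on both strands) was in 6 of 10 and in 8.30% of all windows. In Igtp the GAS starts at -45 and the ISRE at -34 relative to the start, in Irgm2 at -75 and -64, in Tgtp1 at -88 and -77 and in Tgtp2 at -81 and -70, the same distance apart in all 4. The bases around the sites are nearly alike in Igtp and Irgm2, and likewise in Tgtp1 and Tgtp2, so these are not 4 separate cases. Gbp5 (GAS at -245 and -52, ISRE at -165) and Gbp7 (GAS at -106 and -87, ISRE at -53) do not share the spacing. The ISRE core was in the windows of 16 of 35 genes of the wider type I interferon list, 5 of its 12 called genes and 11 of the 23 that did not pass. The stretches of 180 bases just before the start follow, on the strand of the gene, with ISRE and GAS matches in capitals; no ISRE overlaps a GAS in them. They are Gbp5 at chr3:142496754-142496933 (plus strand), Gbp7 at chr3:142530156-142530335 (plus), Igtp at chr11:58199376-58199555 (plus) and Tgtp2 at chr11:49064213-49064392 (minus). A match is a description of the letters, and binding was not measured.
Gbp5: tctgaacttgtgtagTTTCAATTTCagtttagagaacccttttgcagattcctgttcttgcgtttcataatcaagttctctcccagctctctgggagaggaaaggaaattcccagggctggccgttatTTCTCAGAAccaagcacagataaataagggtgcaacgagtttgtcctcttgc
Gbp7: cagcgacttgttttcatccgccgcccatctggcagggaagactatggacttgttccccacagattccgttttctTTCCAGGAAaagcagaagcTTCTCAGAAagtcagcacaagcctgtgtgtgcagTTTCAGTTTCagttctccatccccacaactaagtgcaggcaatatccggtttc
Igtp: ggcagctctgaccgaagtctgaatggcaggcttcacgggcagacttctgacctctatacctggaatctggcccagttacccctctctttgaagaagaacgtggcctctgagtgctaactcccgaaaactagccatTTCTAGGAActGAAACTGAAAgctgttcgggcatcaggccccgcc
Tgtp2: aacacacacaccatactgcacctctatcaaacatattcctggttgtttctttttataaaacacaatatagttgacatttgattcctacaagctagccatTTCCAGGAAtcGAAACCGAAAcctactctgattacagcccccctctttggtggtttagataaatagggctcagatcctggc

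Gbp5, whose protein promotes inflammasome assembly, was at 24.5 and 16.9 CPM with NCD and 99.9, 53.8 and 75.1 with HFD, a rise of 1.88 ± 0.25 (edgeR adjusted p = 1.46e-05). Gbp7 was abundant already with NCD, at 355 and 354 CPM, and reached 663, 546 and 578 with HFD, a rise of 0.75 ± 0.12 (adjusted p = 1.94e-04). Gbp4 went from 217 and 188 to 619, 312 and 468 CPM (1.20 ± 0.20) and Gbp3 from 147 and 96.5 to 357, 239 and 314 (1.31 ± 0.20). In each of these the lowest HFD library, replicate 2 for all 4, still lay above both NCD libraries. The IRG gene Igtp was at 167 and 174 CPM with NCD and 795, 334 and 599 with HFD, a rise of 1.75 ± 0.29 (edgeR adjusted p = 6.07e-04). Ifi47 rose from 194 and 139 to 628, 385 and 539 CPM (1.64 ± 0.19, adjusted p = 4.55e-06). Irgm1, a regulator that guards host membranes from the other IRGs, rose from 97.8 and 76.1 to 361, 172 and 258 CPM (1.60 ± 0.27). The steepest members were nearly silent with NCD. Iigp1 was at 8.03 and 3.54 CPM with NCD and 507, 152 and 315 with HFD (5.78 ± 0.83, edgeR adjusted p = 2.41e-04), Tgtp2 at 2.86 and 1.66 against 47.7, 24.8 and 38.5 (4.00 ± 0.48, adjusted p = 3.75e-06) and Gbp10 at 0 and 0.624 against 15.2, 11.4 and 14.6 CPM. With so few NCD counts the fitted sizes are imprecise and rest on the treatment of low counts. Among the 16 rising members HFD replicate 1 was the highest library in 13 and replicate 3 in 3. Rising GTPase genes numbered 10 with the activation-gene covariate and 4 with the B cell and MHC class II covariate.

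Of 17 receptor and signalling genes of the interferon pathway 2 were called higher and none lower. This share, 11.8%, was near the 9.24% called among all genes tested. Irf1, an interferon-induced transcription factor gene, was at 272 and 237 CPM with NCD and at 634, 409 and 631 with HFD, a rise of 1.13 ± 0.34 (edgeR adjusted p = 0.0449), and its lowest HFD library was replicate 2. The receptor gene Ifnar2 (0.46 ± 0.15), Irf2 (0.64 ± 0.22), Stat3 (0.31 ± 0.12) and Jak2 (0.49 ± 0.21) did not pass, though Ifnar2 and Irf2 did with DESeq2 (adjusted p = 0.0394 and 0.0441) and without HFD replicate 2 (edgeR adjusted p = 0.0484 and 0.0417), and Stat2 overlapped between arms at 70.7 and 79.3 against 101, 57 and 74.4 CPM. Of the 47 tested genes of the type I interferon response 19 rose and none fell (median 0.92). Irf9, which encodes the DNA-binding part of the ISGF3 complex, went from 70.7 and 64.5 to 207, 113 and 182 CPM (1.31 ± 0.25, edgeR adjusted p = 0.00105). Slfn1, a schlafen gene, was at 24.1 and 24.3 against 85.4, 68.6 and 93.8 CPM (1.77 ± 0.32). Zbp1, a sensor of Z-form nucleic acids, was at 30.5 and 20.4 against 103, 42.6 and 58.5 CPM (1.42 ± 0.28), again highest in HFD replicate 1. Lgals3bp, which encodes a secreted galectin-binding protein, was at 17.3 and 21.8 against 101, 63.6 and 49 CPM (1.87 ± 0.36), and Ifih1, the RNA sensor MDA5, at 7.32 and 14.6 against 43.9, 42.4 and 46.3. Some classical antiviral members stayed low in every library: Isg15 was at 2.32 and 2.29 against 4.22, 6.13 and 3.37 CPM, Mx1 at 6.25 and 2.50 against 8.10, 11.1 and 2.25, and Ifit3 at 2.86 and 0 against 12, 14.4 and 2.92. Rtp4 was at 3.93 and 0.416 CPM with NCD and 54.2, 34.6 and 43.6 with HFD, a gene nearly silent with NCD. Of the Ifi200 family of nucleic acid sensors, 5 of 8 tested genes rose (median 1.43), with Ifi203 at 97.7 and 75.7 against 176, 155 and 195 CPM (1.01 ± 0.22, edgeR adjusted p = 0.00276) and Mndal at 60.5 and 58.7 against 103, 102 and 122 (0.87 ± 0.21). Rising type I interferon genes numbered 9 in a fit of the compared libraries alone, 3 with the activation-gene covariate and 2 with the B cell and MHC class II covariate, and they numbered 10 or 6 without NCD replicate 2 or 3, respectively, and 10 without HFD replicate 1. Rising Ifi200 genes numbered 2 with the activation-gene covariate and 0 with the B cell and MHC class II covariate, and they numbered 2 or 0 without NCD replicate 2 or 3, respectively, and 3 without HFD replicate 3. With 1 library omitted at a time, NCD replicate 2 ended the calls of Irf1 (1.22) and Mndal (0.88), NCD replicate 3 ended the calls of Irf1 (1.03), Zbp1 (1.16), Ifi203 (0.84) and Mndal (0.84), HFD replicate 1 ended the call of Irf1 (1.03) and HFD replicate 3 ended that of Irf1 (1.03). As to other fits, in a fit of the compared libraries alone Zbp1 lost its call; with no filter Irf1 lost its call.

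Of 22 tested genes of MHC class I presentation 9 rose and none fell (median 0.31). Psmb10, an inducible catalytic subunit of the immunoproteasome, was at 51.1 and 38.7 CPM with NCD and 198, 101 and 157 with HFD, a rise of 1.76 ± 0.22 (edgeR adjusted p = 6.57e-06). The subunit gene Psmb9 was at 119 and 118 against 336, 157 and 224 CPM (1.01 ± 0.19), and the proteasome activator Psme1 at 189 and 187 against 444, 298 and 368 (0.98 ± 0.13, adjusted p = 1.59e-05). Tap1 and Tap2, which carry peptides into the endoplasmic reticulum, rose by 0.91 ± 0.19 and 0.74 ± 0.15, and Tapbpl, a peptide editor, by 1.16 ± 0.23. By contrast the heavy chain genes H2-K1 (10360.3 and 10374 against 9791, 9429 and 9274 CPM) and H2-D1 (7699 and 8807 against 7095, 6926 and 6328 CPM) were slightly lower in every HFD library without being called, and B2m overlapped at 3806 and 4180.1 against 4086, 3239.7 and 3808. Of the other members Erap1, Calr and Pdia3, which trim or load peptides, and the transactivator gene Nlrc5 did not pass either. The H2 genes are near-identical copies, so their separate values are uncertain. Rising class I genes numbered 3 in a fit of the compared libraries alone, 2 with the activation-gene covariate and 2 with the B cell and MHC class II covariate, and they numbered 5 without NCD replicate 3. In fits without 1 library, NCD replicate 3 ended the call of Tap1 (0.86); the log2 fold change moved for Tap1 to 0.58 and Tap2 to 0.47 without HFD replicate 1. Among the other fits, in a fit of the compared libraries alone Psmb9, Tap1 and Tap2 lost their calls.

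Most genes of the sterol pathway fell. Of 23 tested genes of sterol synthesis and uptake 18 fell and none rose, with a median of -1.11; Stard4, Dhcr7, Scap, Mvk and Pmvk did not pass. Srebf2, the gene of SREBP2 itself, was at 252 and 225 CPM with NCD and 111, 108 and 107 with HFD, a fall of 1.13 ± 0.13 (edgeR adjusted p = 2.48e-06). Its HFD values lay close together. Sqle, which encodes squalene epoxidase, a rate-controlling enzyme, was at 89.6 and 117 against 13.7, 26.2 and 17.3 CPM and fell by 2.43 ± 0.29 (adjusted p = 5.62e-06). Hmgcs1, an early enzyme of the pathway, went from 166 and 229.7 to 59.6, 65.9 and 50.8 CPM, a fall of 1.75 ± 0.29. Of the late enzymes, Cyp51 was at 118 and 206 against 35.8, 68.1 and 57.1 CPM (-1.60 ± 0.29). Hsd17b7 was at 43.9 and 57 against 15.5, 17.1 and 13 CPM (-1.72 ± 0.28). Insig1, the sterol-sensing brake that holds SREBP in the endoplasmic reticulum and is itself an SREBP target, fell by 1.49 ± 0.26. NCD replicate 3 was above NCD replicate 2 in 16 of the 18 falling genes. Falling sterol genes numbered 8 with the activation-gene covariate and 5 with the B cell and MHC class II covariate, and they numbered 9 without NCD replicate 3. Of the 5 libraries, left out in turn, NCD replicate 3 ended the call of Cyp51 (-1.15).

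Promoter stretches of sterol genes are shown for the same reason, with 3 genes that fell and 1 that did not pass. Windows matched 16 of the 23 tested genes. The sterol regulatory element (SRE, searched as TCACNCCAC on both strands) was found in 1 of 16, in Hmgcs1 at -137, and in 1.24% of all windows. The CCAAT box, bound by NF-Y, which works with SREBP at many promoters, was in 14 of 16 genes and in 37.4% of all windows; it was present in 11 of 12 genes that fell and 3 of 4 that did not pass, so it did not separate them. In capitals are SRE and CCAAT matches, the latter on either strand (CCAAT or ATTGG), none overlapping an SRE. The shown stretches are Hmgcs1 at chr13:119690171-119690350 (plus strand), Idi1 at chr13:8885426-8885605 (plus), Msmo1 at chr8:64733579-64733758 (minus) and Mvk, which was not called, at chr5:114444089-114444268 (plus). Idi1, an isomerase gene, was at 6.25 and 10.2 against 0.675, 2.48 and 2.02 CPM (-2.24 ± 0.49, edgeR adjusted p = 0.00276). Msmo1, a sterol demethylation gene, was at 85 and 108 against 49.6, 52.8 and 36.2 CPM (-1.06 ± 0.22, edgeR adjusted p = 0.00163). Mvk, the gene of mevalonate kinase, was at 15.2 and 9.99 against 13, 8.11 and 2.70 CPM and overlapped between the arms. Left out singly, NCD replicate 3 ended the calls of Idi1 (-1.85) and Msmo1 (-0.88). In a fit of the compared libraries alone Idi1 lost its call.
Hmgcs1: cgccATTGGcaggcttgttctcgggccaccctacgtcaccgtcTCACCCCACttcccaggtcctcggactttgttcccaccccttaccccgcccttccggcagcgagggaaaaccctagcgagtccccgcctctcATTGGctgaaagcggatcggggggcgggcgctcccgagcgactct
Idi1: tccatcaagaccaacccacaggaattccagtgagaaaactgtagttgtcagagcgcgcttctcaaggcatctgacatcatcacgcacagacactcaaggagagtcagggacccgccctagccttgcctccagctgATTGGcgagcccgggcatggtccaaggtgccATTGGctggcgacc
Msmo1: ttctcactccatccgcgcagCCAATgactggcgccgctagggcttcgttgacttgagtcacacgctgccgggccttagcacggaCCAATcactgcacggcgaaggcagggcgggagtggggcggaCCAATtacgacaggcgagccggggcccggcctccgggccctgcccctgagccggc
Mvk: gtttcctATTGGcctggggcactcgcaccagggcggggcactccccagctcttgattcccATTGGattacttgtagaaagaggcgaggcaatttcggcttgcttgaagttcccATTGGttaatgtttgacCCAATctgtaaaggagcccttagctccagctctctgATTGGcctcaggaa

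Other lipid genes changed less uniformly. Of 17 tested genes of fatty acid uptake and storage, 5 fell, and Dgat2, an enzyme of triglyceride synthesis, rose from 27.3 and 28.7 to 75.9, 96.7 and 104 CPM (1.72 ± 0.32, edgeR adjusted p = 6.50e-04). Plin2, the coat protein gene of lipid droplets, was at 501 and 503 CPM with NCD and 166, 225 and 126 with HFD, a fall of 1.54 ± 0.35 (adjusted p = 0.00883), and Hilpda, a hypoxia-induced lipid droplet gene, fell by 0.98 ± 0.26. Fabp4, a PPARγ target, was low throughout, at 5.18 and 3.95 against 0, 0.497 and 0 CPM, and called lower (edgeR adjusted p = 0.00911). The scavenger receptor gene Cd36 was near the floor, at 2.86 and 4.78 against 1.35, 0.166 and 0.450 CPM, and did not pass. Of 11 fatty acid synthesis genes, Elovl1 (from 151 and 161 to 99.2, 84.6 and 84.6 CPM) and Acly fell by 0.80 ± 0.16 and 0.38 ± 0.12, whereas Fasn overlapped at 97.8 and 88.2 against 73.6, 93.4 and 70.4 CPM. Of 20 fatty acid oxidation genes 4 fell: Acaa2 by 0.68 ± 0.14, Ech1 by 0.63 ± 0.13, Acadm by 0.77 ± 0.18 and Etfb by 0.59 ± 0.19. The median of that list was -0.07, close to that of all genes. Falling uptake and storage genes numbered 1 with the activation-gene covariate and 1 with the B cell and MHC class II covariate, and they numbered 1 or 3 without NCD replicate 2 or 3, respectively, and 3 without HFD replicate 1 or 3. With 1 library omitted at a time, NCD replicate 2 ended the calls of Plin2 (-1.56), Hilpda (-0.73), Fabp4 (-4.29), Acly (-0.41), Ech1 (-0.56) and Etfb (-0.66), NCD replicate 3 ended the calls of Plin2 (-1.54), Acly (-0.37), Acadm (-0.72) and Etfb (-0.53), HFD replicate 1 ended the call of Hilpda (-0.82), HFD replicate 2 ended the calls of Acly (-0.37) and Etfb (-0.60) and HFD replicate 3 ended those of Hilpda (-0.97), Acly (-0.30) and Etfb (-0.49); the log2 fold change moved for Fabp4 to -7.45 without HFD replicate 2. As to other fits, in a fit of the compared libraries alone Acly and Etfb lost their calls; with limma voom Fabp4 lost its call; with no filter Acly and Etfb lost their calls.

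Most of the genes that mark the adipose Treg state fell. Of 22 tested genes of the VAT-Treg programme 12 fell and 2, Dgat2 and Itgae, rose (median -1.10); earlier results on these libraries were known when this list was drawn up, so its direction is no independent evidence. Pparg itself was at 116 and 104 CPM with NCD and 17, 51 and 22.3 with HFD, with replicate 2 the least reduced. Rora, a nuclear receptor gene, was at 1121 and 1343 CPM with NCD and 547, 668 and 580.0 with HFD, a fall of 1.04 ± 0.11 (edgeR adjusted p = 9.80e-07). The effector Treg regulator Irf4 was at 304 and 282 against 107, 95 and 60.5 CPM and fell by 1.74 ± 0.22 (adjusted p = 1.59e-05). Fgl2, a secreted suppressive mediator, was at 1916 and 2552 against 1140.1, 1074 and 984 CPM and fell by 1.07 ± 0.16. Secreted products fell as well. Il10 was at 953 and 576 CPM with NCD and 85, 143 and 81.2 with HFD, with every HFD library far below NCD. The amphiregulin gene Areg was at 1799.8 and 1371 against 473, 753 and 769.8 CPM, a fall of 1.25 ± 0.32 (adjusted p = 0.019). Gzmb, the granzyme B gene, was at 785 and 878 against 321, 213 and 112 CPM and fell by 1.95 ± 0.39. Other regulators were not called: Gata3 was at 1502 and 1317 against 618, 1253 and 814 CPM, Batf at 201 and 216 against 269.6, 244 and 224, and Prdm1, the gene of Blimp-1, at 181 and 151 against 191, 124 and 93.8. In bulk libraries fewer cells of a state and less RNA per cell cannot be told apart. Falling programme genes numbered 5 with the activation-gene covariate and 3 with the B cell and MHC class II covariate. In fits without 1 library, NCD replicate 2 ended the call of Areg (-1.06), NCD replicate 3 ended the call of Areg (-1.44) and HFD replicate 1 ended that of Areg (-1.06).

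**Figure D2:**
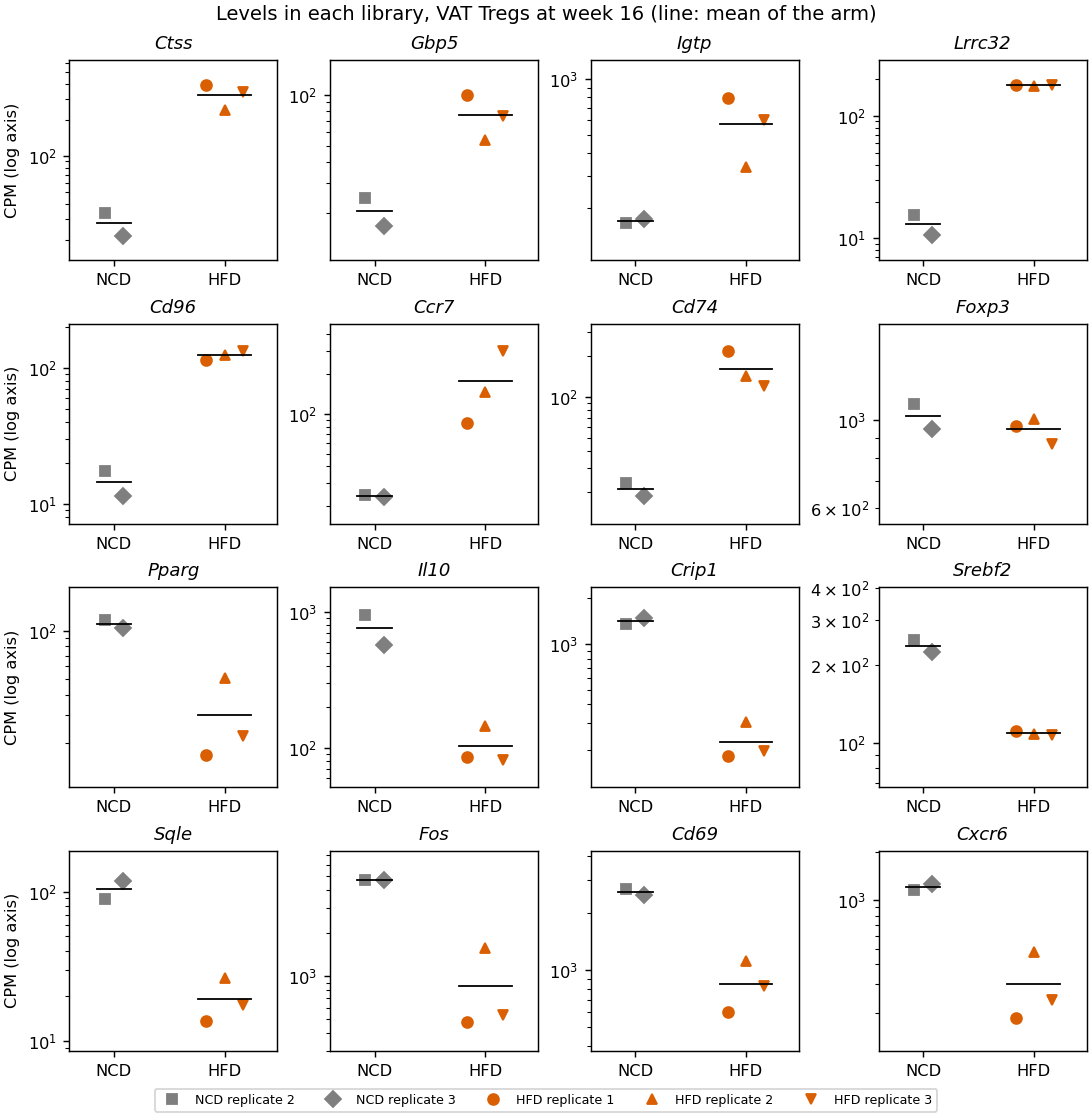
Each panel shows 1 gene in the 5 libraries (CPM on a log axis), with NCD in grey, HFD in orange, a symbol per library and a line at the mean of each arm. Lrrc32, Cd96 and Srebf2 are nearly level within the HFD arm, Pparg, Fos and Cxcr6 show HFD replicate 2 nearest to NCD, Ccr7 is highest in replicate 3, and Foxp3 overlaps between the arms.

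A second block of falling genes covered calcium-binding S100 proteins, annexins and the cytoskeleton, which are typical of effector and tissue T cells. Of 24 tested members 17 fell and none rose (median -1.06). Crip1, a LIM-domain gene, was at 1359 and 1481 CPM with NCD and 181, 304 and 197 with HFD, a fall of 2.64 ± 0.26 (edgeR adjusted p = 4.21e-06). Lgals3, the galectin-3 gene, was at 639.9 and 702 against 89.2, 143 and 74.2 CPM (-2.71 ± 0.30, adjusted p = 1.59e-05), and Anxa1, an annexin with anti-inflammatory action, at 1418 and 1686 against 100.2, 294 and 160.1 (-3.07 ± 0.35, adjusted p = 2.43e-05). For these genes every HFD library lay far below both NCD libraries. Lmna, which encodes the nuclear lamins A and C, was at 1548 and 1686 against 154, 321 and 133 CPM (-2.99 ± 0.41), S100a4 at 804 and 1049.6 against 185, 199 and 172 (-2.32 ± 0.34) and Tagln2 at 1195 and 1557 against 616, 566 and 420.3 (-1.36 ± 0.18). Some abundant members did not pass: Actb (13082 and 19736 against 14102, 13872 and 13240.5 CPM) and Coro1a (2877 and 2913 against 3288, 2854 and 3048 CPM) overlapped between the arms. Falling genes of this list numbered 4 with the B cell and MHC class II covariate.

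Receptors that place T cells in tissue or lymphoid organs moved in both directions. Of the genes tied to tissue residence, Cd69, which blocks exit from tissue, was at 2671 and 2494 CPM with NCD and 600.4, 1119 and 831 with HFD, a fall of 1.60 ± 0.18 (edgeR adjusted p = 4.21e-06). Cd69 is also counted among the falling Nr4a, Egr and related genes below. With the activation-gene covariate, which includes Cd69 itself, its log2 fold change was -1.02. Cxcr6, the receptor for CXCL16, was at 1159.8 and 1265 against 185, 476 and 239 CPM and fell by 2.01 ± 0.29 (adjusted p = 1.76e-04). The hyaluronan receptor gene Cd44 was at 1767 and 1958 against 534, 867 and 629 CPM and fell by 1.46 ± 0.18 (adjusted p = 1.70e-05). Collagen-binding integrins fell: Itga1 was at 20.5 and 24.8 against 6.92, 2.48 and 3.82 CPM (-2.35 ± 0.41) and Itga2 at 61.1 and 60.7 against 29.7, 33.6 and 23.8 (-1.06 ± 0.21). In contrast Itgae, the integrin αE chain that binds E-cadherin, rose from 98.7 and 107 to 387, 233 and 208 CPM (1.43 ± 0.31, adjusted p = 0.0054), and Itgb8, which activates TGF-β, from 60.7 and 70.5 to 118, 147 and 142 (1.05 ± 0.19, adjusted p = 5.21e-04). The tetraspanin gene Cd81 rose by 1.03 ± 0.17. Of 21 integrin and adhesion genes 7 rose and 5 fell, and of 21 chemokine and homing receptors 6 rose and 3, Ccr2, Cxcr6 and Ccr1, fell. Rising integrin and adhesion genes numbered 4 with the activation-gene covariate and 1 with the B cell and MHC class II covariate, and they numbered 2 without NCD replicate 2 or 3. Falling ones numbered 1 with the B cell and MHC class II covariate. Rising chemokine and homing receptors numbered 3 with the activation-gene covariate and 1 with the B cell and MHC class II covariate, and they numbered 1 without NCD replicate 2 or 3, and 3 without HFD replicate 3. Of the 5 libraries, left out in turn, NCD replicate 2 ended the call of Itgae (1.36) and NCD replicate 3 ended that of Itgae (1.48).

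Several genes of resting lymphoid T cells rose. Of 20 tested members 9 rose and none fell (median 0.88), and HFD replicate 3 was the highest library for all 9. Ccr7, which guides cells to lymph nodes, was at 24.1 and 23.5 CPM with NCD and 85.4, 146 and 301 with HFD, a rise of 2.89 ± 0.72 (edgeR adjusted p = 0.0154). Satb1, a chromatin organizer, was at 18 and 20.2 against 105, 91.1 and 235 CPM (2.91 ± 0.50, adjusted p = 7.77e-04). The transcription factor genes were likewise highest in HFD replicate 3. Tcf7 (TCF1) was at 16.4 and 9.36 CPM with NCD and 42, 64.4 and 119.9 with HFD (2.53 ± 0.58). Lef1 was at 58 and 54.1 against 81.8, 103 and 171 CPM (1.08 ± 0.22). Bach2, a repressor of effector genes, was at 1.43 and 0.832 against 6.75, 19.4 and 33.3 CPM (4.08 ± 0.76), with few counts in NCD. Foxo1, which sustains Ccr7 expression, was at 60.5 and 53.5 against 103, 107 and 163 CPM (1.12 ± 0.21, adjusted p = 7.31e-04). Other genes of the same state were not called by edgeR and differed in direction. Klf2 was lower in all HFD libraries, at 30.9 and 29.3 against 7.93, 9.60 and 21.1 CPM. S1pr1 was higher in all HFD libraries, at 71.8 and 60.3 against 77.4, 88.4 and 154 (0.68, edgeR adjusted p = 0.0817). Il7r overlapped at 959.6 and 876 against 645, 1089 and 823. Of the other homing receptors, Cxcr3, an interferon-linked receptor, was at 68.2 and 33.9 against 519.6, 135 and 185 CPM (2.45 ± 0.63, adjusted p = 0.0198), highest in HFD replicate 1. Cxcr5, which guides cells to B cell follicles, was at 1.43 and 1.46 against 20.1, 60.1 and 48.6 CPM (4.87 ± 0.96), again with few counts in NCD. Without HFD replicate 3, edgeR called 4 members lower: Foxp1 (-1.15), Il4ra (-0.47), Klf2 (-1.78) and Ly6c1 (-3.08). Klf2 was also called lower with no filter (-1.26), DESeq2 (-1.23) and limma voom (-1.28), and Ly6c1 with limma voom (-2.35). Rising resting lymphoid genes numbered 2 with the B cell and MHC class II covariate. Left out singly, NCD replicate 2 ended the calls of Ccr7 (2.90), Tcf7 (2.99), Cxcr3 (3.03) and Cxcr5 (4.84), NCD replicate 3 ended the calls of Ccr7 (2.87), Tcf7 (2.19), Cxcr3 (2.04) and Cxcr5 (4.88), HFD replicate 1 ended the call of Cxcr3 (1.63) and HFD replicate 3 ended that of Ccr7 (2.27); the log2 fold change moved for Lef1 to 0.71 without HFD replicate 3. Among the other fits, in a fit of the compared libraries alone Lef1 and Cxcr3 lost their calls.

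The identity genes shared by all Tregs did not move as one. Of 18 tested core genes 7 rose and 4 fell (median 0.30), with Foxp3 (-0.12 ± 0.10, edgeR adjusted p = 0.548) among those that did not pass. The genes that rose included Lrrc32, which encodes GARP, the docking receptor for latent TGF-β, at 15.5 and 10.6 CPM with NCD and 177, 176 and 178 with HFD, a rise of 3.75 ± 0.45 (adjusted p = 2.43e-05). Izumo1r, the gene of folate receptor 4, was at 99.3 and 85.7 against 351, 300.2 and 391 CPM and rose by 1.91 ± 0.20 (adjusted p = 9.80e-07). Ikzf4, the gene of the Foxp3 partner Eos, was at 33.7 and 31.6 against 111, 102 and 96.3 CPM and rose by 1.66 ± 0.22 (adjusted p = 1.44e-05). In all 3 the HFD values lay close together, far above both NCD libraries. The core genes that fell included 2 tied to IL-2. Il2ra, the high-affinity receptor chain, was at 1040.3 and 1021 CPM with NCD and 437, 545 and 469 with HFD, a fall of 1.09 ± 0.16 (adjusted p = 7.50e-05). Socs2, a STAT5 target, was at 154 and 153 against 68.3, 68.7 and 64.1 CPM, a fall of 1.19 ± 0.19. Ctla4, the gene of an inhibitory receptor, was at 2535 and 2576 against 1597, 2026 and 1584 CPM, a fall of 0.56 ± 0.10, and the fourth was Capg, an actin-capping gene (1186 and 1223 against 1091, 875 and 682 CPM). Among 18 IL-2 and STAT5 genes 4 rose and 5 fell: the targets Cish and Ccnd2 fell by 0.57 ± 0.12 and 0.67 ± 0.14, while the transcription factor gene Stat5b (107 and 101 against 149, 216 and 269 CPM) rose by 1.02 ± 0.18 and Bcl2 (23.2 and 25 against 59.2, 69.5 and 164 CPM) by 2.01 ± 0.40. Rising core genes numbered 4 with the B cell and MHC class II covariate. Falling core genes numbered 2 in a fit of the compared libraries alone and 0 with the B cell and MHC class II covariate. Rising IL-2 and STAT5 genes numbered 2 in a fit of the compared libraries alone and without NCD replicate 2 or 3. They numbered 1 with the activation-gene covariate and 0 with the B cell and MHC class II covariate. Falling IL-2 and STAT5 genes numbered 0 with the B cell and MHC class II covariate. In a fit of the compared libraries alone Ctla4 and Capg lost their calls.

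Suppressive mediators and inhibitory receptors also changed in both directions. Of 23 mediators and cytokines 9 rose and 7 fell. Nt5e, the gene of CD73, which makes adenosine, was at 49.1 and 38.9 CPM with NCD and 135, 192 and 222 with HFD, a rise of 2.05 ± 0.39 (edgeR adjusted p = 0.00165). Ebi3, a subunit of IL-35, was at 39.1 and 29.96 against 114, 100.3 and 58.5 CPM and rose by 1.40 ± 0.26 (adjusted p = 5.19e-04). The cytokine receptors moved in opposite directions. Il18r1 rose from 17.5 and 24.5 to 158, 77.2 and 91.8 CPM (2.38 ± 0.45, edgeR adjusted p = 0.0017), whereas Il9r fell from 112 and 105 to 23.8, 54.1 and 24.3 (-1.66 ± 0.23, adjusted p = 2.60e-05) and Il1rl1, the IL-33 receptor, stood at 1162 and 1126 against 220.3, 646 and 466. Furin, the protease that matures TGF-β, fell from 69.6 and 78.2 to 33.2, 32.6 and 24.5 CPM (-1.29 ± 0.22). Of 18 coinhibitory and CD28 family receptors 5 rose and 3 fell. Cd96, an inhibitory receptor for CD155, was at 17.5 and 11.4 CPM with NCD and 115, 124 and 132 with HFD, a rise of 3.09 ± 0.35 (adjusted p = 2.91e-06). Btla, a partner of the TNF receptor HVEM, was under 30 CPM in both NCD libraries and at 55.8, 50.2 and 77.1 CPM with HFD (1.34 ± 0.24). Cd274, the gene of PD-L1, was at 68.7 and 52.6 against 138, 105 and 128 CPM (1.03 ± 0.22), and its receptor gene Pdcd1 (PD-1) at 563 and 669 against 676, 1197 and 833 (0.55 ± 0.17). Cd200, a ligand of an inhibitory myeloid receptor, was at 10.5 and 32 against 53.8, 51.2 and 65.9 CPM (1.43 ± 0.37), with 1 low NCD library. Besides Ctla4, Klrg1 fell, at 2247 and 2222 against 941, 1315 and 817 CPM, as did Cd200r1, the receptor of CD200, at 646 and 703 against 298, 446 and 293 (-0.96 ± 0.25). Rising mediators numbered 5 with the activation-gene covariate and 2 with the B cell and MHC class II covariate, and they numbered 4 or 5 without NCD replicate 2 or 3, respectively. Falling mediators numbered 2 with the activation-gene covariate and 0 with the B cell and MHC class II covariate. Rising coinhibitory receptors numbered 3 with the activation-gene covariate and 1 with the B cell and MHC class II covariate, and they numbered 3 without NCD replicate 2 or 3. With 1 library omitted at a time, NCD replicate 2 ended the calls of Il18r1 (2.14), Pdcd1 (0.42), Cd200 (0.81) and Cd200r1 (-1.04), NCD replicate 3 ended the calls of Cd274 (0.84), Pdcd1 (0.68) and Cd200r1 (-0.90), HFD replicate 1 ended the call of Cd200r1 (-0.87), HFD replicate 2 ended the call of Pdcd1 (0.29) and HFD replicate 3 ended that of Cd200r1 (-0.87); the log2 fold change moved for Cd200 to 2.43 without NCD replicate 3. As to other fits, in a fit of the compared libraries alone Pdcd1 and Cd200 lost their calls.

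**Figure D3:**
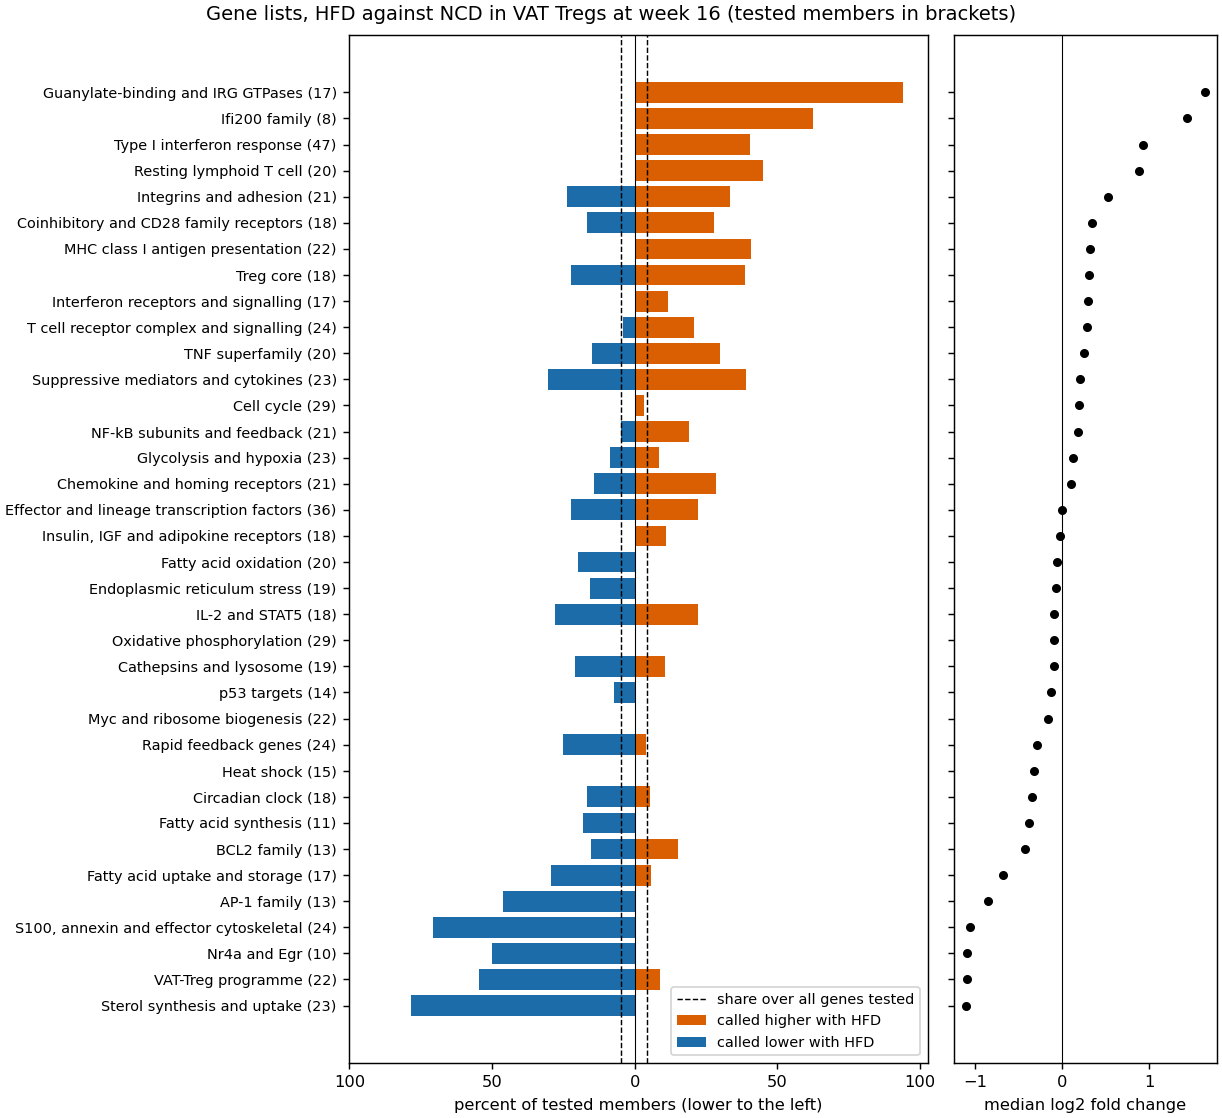
For each of 36 gene lists the bars give the percent of tested members called higher (right) and lower (left) with HFD, the dashed lines the share over all genes tested (4.31% and 4.93%), and the points the median log2 fold change. The GTPases stand at 1 end, with 16 of 17 members higher, and the sterol genes at the other, with 18 of 23 lower.

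Among TNF superfamily, NF-κB and antigen receptor genes more members were called higher than lower in the main fit, with counts that moved in other fits. Ltb, the lymphotoxin β gene, was at 264 and 254 CPM with NCD and 843, 652 and 814 with HFD, and its partner Lta at 2.68 and 3.12 against 13.8, 13.6 and 18.7 (2.40 ± 0.52, edgeR adjusted p = 0.00298). Tnf, by contrast, fell from 215 and 169 to 73, 61.3 and 66.6 CPM (-1.52 ± 0.21, adjusted p = 2.19e-05). The death receptor gene Fas was at 30.2 and 27.5 against 91.9, 74 and 101 CPM (1.62 ± 0.31) and the costimulatory receptor gene Tnfrsf9 at 313 and 364 against 752, 649.9 and 507 (0.91 ± 0.17). In all, 6 of 20 superfamily genes rose and 3 fell. Of 21 NF-κB genes 4 rose, led by Relb, the subunit of the non-canonical pathway, at 76.4 and 61.8 CPM with NCD and 192, 178 and 145 with HFD (1.31 ± 0.16, edgeR adjusted p = 4.21e-06). Birc2, which restrains that pathway, was at 178 and 171 against 368, 275 and 287 CPM (0.83 ± 0.17), and Nfkb2, the partner of RelB, at 133 and 139 against 219, 204 and 174 (0.55 ± 0.13). The 1 gene that fell was Nfkbia, the inhibitor IκBα and a rapid target of canonical NF-κB, at 6024 and 6328 against 2451, 4349 and 3451 CPM (-0.85 ± 0.16). Of 24 genes of the T cell receptor complex and its signalling 5 rose and 1, the ζ chain gene Cd247 (821 and 790.3 against 699.9, 632 and 538 CPM), fell. Lck, the kinase that starts the signal, was at 833 and 833 against 1200.2, 1046 and 1125 CPM (0.43 ± 0.10), and the transcription factor gene Nfatc2 at 49.3 and 35.4 against 80.3, 77.8 and 65.4 (0.81 ± 0.16). Of the BCL2 family the death-promoting Pmaip1 fell by 1.10 ± 0.18 and Bcl2l11, the gene of BIM, rose by 1.47 ± 0.33, and the survival gene Bcl2l1 fell by 0.84 ± 0.19 while Bcl2 rose. Rising TNF superfamily genes numbered 2 with the B cell and MHC class II covariate. Falling ones numbered 1 in a fit of the compared libraries alone, with either covariate and without NCD replicate 2 or HFD replicate 1. Rising NF-κB genes numbered 2 in a fit of the compared libraries alone, 1 with the activation-gene covariate and 1 with the B cell and MHC class II covariate, and they numbered 2 without NCD replicate 3. Falling ones numbered 3 with DESeq2 or without HFD replicate 2, 2 with limma voom and 0 with either covariate. Rising receptor signalling genes numbered 2 in a fit of the compared libraries alone, 2 with the activation-gene covariate and 1 with the B cell and MHC class II covariate, and they numbered 2 or 0 without NCD replicate 2 or 3, respectively. Falling ones numbered 0 with RLE normalization, with no filter, in a fit of the compared libraries alone and with either covariate. They also numbered 0 without NCD replicate 2 or 3 and without HFD replicate 2 or 3. In all these fits Cd247 lost its call. In fits without 1 library, NCD replicate 2 ended the calls of Lta (2.27), Nfkb2 (0.50), Lck (0.42), Bcl2l11 (1.43) and Bcl2l1 (-0.72) and NCD replicate 3 ended those of Nfkb2 (0.58), Lck (0.43), Nfatc2 (0.59) and Bcl2l11 (1.50). Among the other fits, in a fit of the compared libraries alone Nfkb2, Lck and Bcl2l1 lost their calls.

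Some of the genes induced within minutes of activation fell with HFD. Of 13 AP-1 family genes 6 fell, of 10 Nr4a, Egr and related genes 5 fell, and none rose in either list (medians -0.86 and -1.09). Fos was at 4688 and 4718 CPM with NCD and 479.6, 1565 and 537 with HFD, a fall of 2.45 ± 0.45 (edgeR adjusted p = 0.00182). Fosb was at 692 and 622 against 53, 179.8 and 66.6 CPM (-2.71 ± 0.35, adjusted p = 8.19e-05) and Junb, the most abundant of these genes, at 11028 and 11378 against 3925, 8541 and 6087 (-0.86 ± 0.19, adjusted p = 0.00666). For all 3, HFD replicate 2 was the nearest to NCD. Egr1 was at 359.9 and 317 against 35.1, 83.3 and 51.3 CPM (-2.58 ± 0.36). Nr4a1, widely used as a reporter of antigen receptor signals, was at 3439 and 3007 against 967, 1995 and 1339 CPM (-1.17 ± 0.30). Ier3 was at 161 and 116 against 8.10, 21.2 and 9.67 CPM (-3.40 ± 0.42), and it too was nearest to NCD in HFD replicate 2. The family members did not all follow: Nr4a2 (171 and 109.6 against 135, 253 and 124 CPM), Fosl2 (384 and 390.3 against 274, 516 and 355) and Crem (512 and 516 against 385, 717 and 549.9) overlapped between the arms. Among 24 rapid feedback genes 6 fell, such as Zfp36, which destabilizes cytokine mRNA (504 and 425 against 108, 188 and 132 CPM, -1.70 ± 0.23), and Dusp1, a MAP kinase phosphatase (8269 and 8472 against 2735, 5978 and 3395 CPM, -1.05 ± 0.23). Rgs1, a brake on chemokine receptor signals, rose, from 389 and 385 to 623, 552 and 642 CPM (0.65 ± 0.16). Genes of this kind are known to be induced by tissue dissociation and sorting as well as by signals in the tissue. Heat shock genes, which handling also induces, were called in 0 of 15 by edgeR (4 at an unadjusted p under 0.05), while DESeq2 called 1 lower and limma voom 0. Their median was -0.32, and HFD lay below NCD without overlap in 9 and above in 0, beside 18.1% and 18.7% of all genes. With no filter edgeR called Dnaja1 (-0.64), Dnajb1 (-0.58) and Dnajb4 (-0.76) lower. Without HFD replicate 2 it called Dnaja1 (-0.82) and Dnajb4 (-1.05) lower. The part of handling in these values was not tested. Falling AP-1 genes numbered 3 in a fit of the compared libraries alone and 1 with the B cell and MHC class II covariate. Falling Nr4a and Egr genes numbered 2 with the B cell and MHC class II covariate, and they numbered 3 without NCD replicate 2. Falling feedback genes numbered 1 with the B cell and MHC class II covariate. Of the 5 libraries, left out in turn, NCD replicate 2 ended the calls of Nr4a1 (-1.08) and Rgs1 (0.64), NCD replicate 3 ended the calls of Junb (-0.84), Nr4a1 (-1.27), Dusp1 (-1.04) and Rgs1 (0.63), HFD replicate 1 ended the call of Nr4a1 (-0.96) and HFD replicate 3 ended that of Nr4a1 (-1.13). In a fit of the compared libraries alone Junb and Dusp1 lost their calls.

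**Figure D4:**
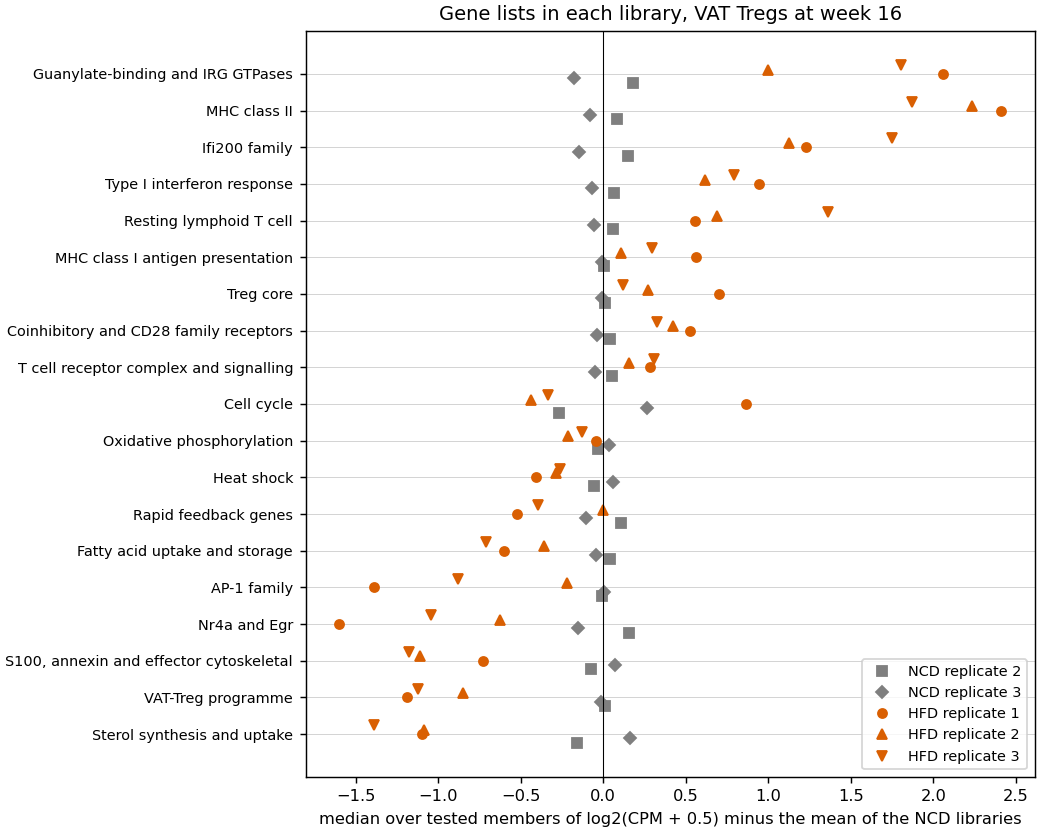
For 19 lists, each symbol gives 1 library's median over the tested members of log2(CPM + 0.5) minus the mean of the NCD libraries. HFD libraries lie to the right of both NCD libraries for the GTPases and the MHC class II genes and to the left for the sterol genes, and HFD replicate 2 lies nearest to NCD for the AP-1 and the Nr4a and Egr lists.

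Markers of other cell types were examined in the same libraries. The MHC class II list, which mouse T cells express little, rose in 5 of 10 genes (median 2.22); its summed level was 96.4 and 82.6 CPM with NCD and 587, 386 and 360.1 with HFD. Cd74, the invariant chain gene, was at 23.4 and 18.5 CPM with NCD and 218, 144 and 121 with HFD, a rise of 2.94 ± 0.60 (edgeR adjusted p = 0.00396). H2-Ob, the gene of a chain of H2-O, was at 18.6 and 11.4 against 57, 75 and 92 CPM (2.30 ± 0.41, edgeR adjusted p = 5.70e-04). H2-DMb2 had no count with NCD and was at 4.39, 2.48 and 4.27 CPM with HFD. The summed level of 16 B cell markers was 835 and 756 CPM with NCD and 2832, 2016 and 2269 with HFD, most of it from Ighm (342 and 328 against 2316, 1571 and 1841 CPM, not called) and from Cd37, which T cells also express (485 and 417 against 419, 396 and 356 CPM). The immunoglobulin light chain gene Igkc was at 2.68 and 5.20 against 67, 27.7 and 36.2 CPM, above NCD in every HFD library without being called. Defining B cell genes were at or near 0: Pax5 had no count, Cd79a was at 0.714 and 0.208 against 0.844, 0.662 and 1.35 CPM and Ms4a1 at 0.714 and 1.46 against 5.23, 0.994 and 0. Cd79b, the only B cell marker called, was at 1.07 and 3.12 against 17.4, 10.8 and 17.3 CPM (2.86 ± 0.59, edgeR adjusted p = 0.00162). Of 12 dendritic cell markers 5, among them Itgax and Clec9a, had no count in any library, yet Zbtb46, a transcription factor of those cells, was at 1.07 and 0.416 CPM with NCD and 18.1, 24.3 and 20.9 with HFD (edgeR adjusted p = 1.78e-04). Xcr1 fell from 10.9 and 11.7 to 2.19, 3.64 and 4.05 CPM (-1.78 ± 0.36). Of the endothelial markers Pecam1, which T cells also express, rose from 34.6 and 30.8 to 72.7, 116 and 135 CPM (1.72 ± 0.27, adjusted p = 1.34e-04), while Cdh5, Kdr and Tek stayed under 1 CPM. The summed level of 15 macrophage markers was 9.28 and 7.49 CPM with NCD and 9.28, 12.6 and 11.5 with HFD, and that of 11 adipocyte markers was 5.71 and 6.87 CPM with NCD and 0.169, 1.32 and 1.35 with HFD, with Adipoq at 0 in all 5 libraries. Of 10 stromal markers Gsn, which T cells also express, fell (101 and 119 against 68.2, 73.5 and 58.2 CPM) and Col1a1, the next most abundant, was at 2.50 and 4.16 against 0.337, 2.15 and 2.02 CPM. Granulocyte markers summed to 0 and 0 CPM with NCD and 7.76, 0.331 and 0.225 with HFD. NK and CD8 cell markers summed to 147 and 143 CPM with NCD and 321, 94.9 and 96.9 with HFD, with Cd8a at 0 throughout. Of these Prf1, the perforin gene, rose from 7.32 and 5.41 to 39.1, 15.2 and 23.2 CPM (2.01 ± 0.60). The other 9 tested members did not pass, but some were called lower in alternatives. Nkg7 was called lower with limma voom (-1.99) and without HFD replicate 1 (-2.48). Klrb1c was called lower with no filter (-2.36) and without HFD replicate 2 (-6.91). The part of carried-over RNA from B cells or other antigen-presenting cells in the MHC class II values was not tested. Rising MHC class II genes numbered 1 with the activation-gene covariate, and they numbered 2 or 3 without NCD replicate 2 or 3, respectively. Left out singly, NCD replicate 2 ended the calls of Cd74 (3.11), Cd79b (2.25) and Prf1 (2.24), NCD replicate 3 ended the calls of Cd74 (2.78) and Prf1 (1.81), HFD replicate 1 ended the call of Prf1 (1.57) and HFD replicate 3 ended that of Prf1 (2.08). As to other fits, in a fit of the compared libraries alone Xcr1 lost its call; with limma voom Prf1 lost its call.

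The same diet contrast in the spleen was used to ask which changes differed between the tissues. Of 14686 genes tested in spleen Tregs edgeR called 0, with 975 at an unadjusted p under 0.05 against 734.3 expected; limma voom called 0 (842 at an unadjusted p under 0.05) and DESeq2 called 21 (1032 at an unadjusted p under 0.05). The difference between the HFD effects of VAT and spleen passed in 696 of 15601 genes (4.46%), with the VAT effect above that of the spleen in 334 (2.14%) and below in 362 (2.32%). Of 1308 genes called in VAT and tested in this fit, 581 differed, 288 upward and 293 downward. By list, the VAT effect was above the spleen effect in 10 of 17 GTPase genes and 9 of 20 resting lymphoid genes. It was below in 11 of 23 sterol genes, 17 of 24 S100, annexin and cytoskeletal genes and 6 of 22 genes of the VAT-Treg programme. Without VAT NCD replicate 2 the count of different effects was 386, without VAT NCD replicate 3 it was 407, and in a fit of the compared libraries alone it was 378.

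Single genes show the levels behind these differences. Ctss stood at 479, 519.7 and 474 CPM with NCD and 572, 585 and 556 with HFD in the spleen, above every VAT library, and its effect differed by 3.31 ± 0.26 (edgeR adjusted p = 6.62e-12). Ccr7 was at 334, 632 and 566 against 203, 387 and 526 CPM in the spleen, with all VAT libraries on NCD under 25 CPM, and its effect differed by 3.31 ± 0.71 (adjusted p = 0.00354), a call lost in a fit of the compared libraries alone (adjusted p = 0.0825). For the sterol gene Sqle the spleen value lay on the same side but nearer to 0: it was at 57.1, 48.6 and 47.8 CPM with NCD and 24.2, 43.4 and 34.3 with HFD, a change of -0.59 ± 0.21 that did not pass, and the difference between the effects was -1.88 ± 0.36 (edgeR adjusted p = 5.61e-04). Il1rl1 was at 49.1, 38.5 and 25.4 against 67.7, 72.2 and 36.4 CPM in the spleen, far under its VAT levels, with a difference of -2.05 ± 0.53 (adjusted p = 0.0165). The Il1rl1 difference lost its call in 5 of 17 alternatives: in a fit of the compared libraries alone (edgeR adjusted p = 0.138) and without VAT NCD replicate 2 or 3, spleen NCD replicate 3 or spleen HFD replicate 2. For Pparg (-1.51 ± 1.05), Il10 (-2.61 ± 1.35) and Fos (-2.92 ± 1.05) the difference did not pass (edgeR adjusted p = 0.515, 0.335 and 0.119); all 3 were under 11 CPM in every spleen library, and Pparg was at 7.78, 1.55 and 0 against 1.86, 4.60 and 0. With no filter the differences of Il10 and Fos passed, and that of Fos also without VAT HFD replicate 2. Foxp3 did not differ by test either (-0.34 ± 0.12, adjusted p = 0.115).

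**Figure D5:**
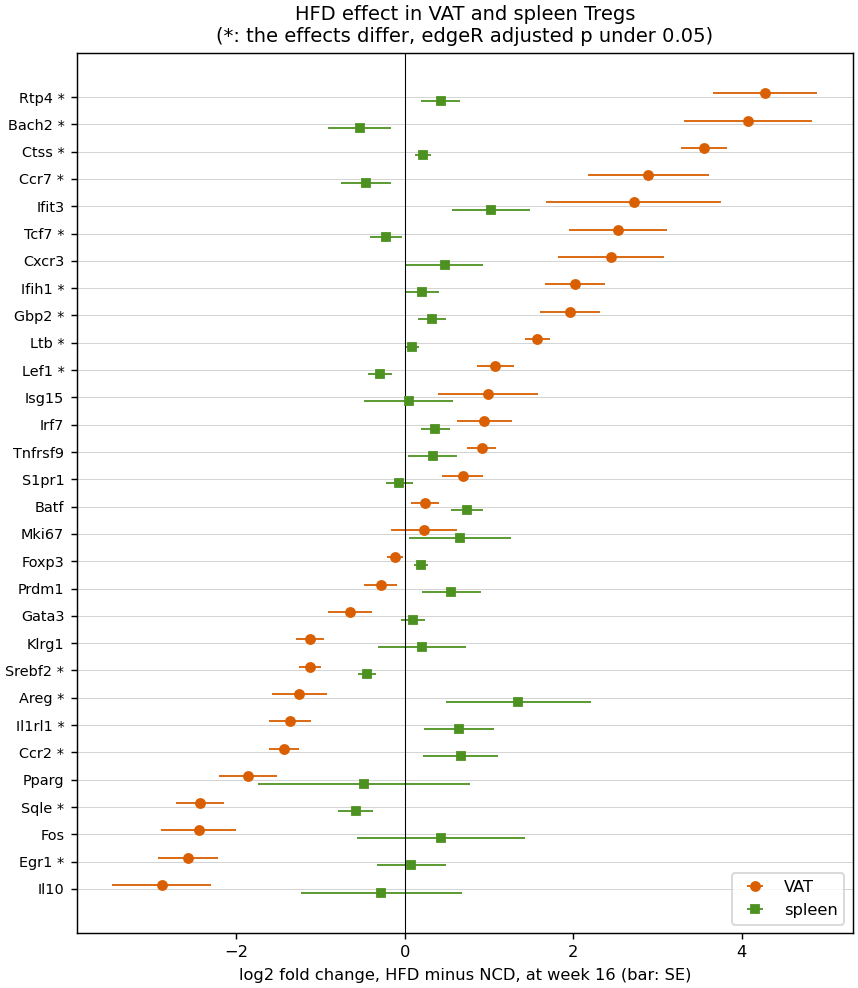
For each of 30 genes the points give the log2 fold change, HFD minus NCD, at week 16 in VAT (orange circles) and spleen (green squares), with bars of 1 SE; an asterisk marks genes whose effects differed between the tissues. Ctss and Ccr7 lie far to the right of their spleen values in VAT, and Sqle lies further to the left in VAT than in spleen.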

How the data were processed

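Poly(A) RNA of sorted cells was amplified and sequenced by a Smart-seq protocol with paired-end reads, per the labels' protocols. The deposited values are read counts per gene, made with STAR 2.7.3a and featureCounts on mm10, per the submitters' processing notes; annotation, strand setting and the treatment of ambiguous reads were not stated there. All 56 count columns were matched to samples by title and 0 were left unmatched. Genes were tested with edgeR 4.0.16 (R 4.3.3): TMM scaling, genes kept by filterByExpr on the groups, a robust quasi-likelihood fit and Benjamini-Hochberg adjustment, on the 25 VAT libraries of the genotype in 9 groups. The difference between tissues was fitted on 51 VAT and spleen libraries in 18 groups (15601 genes). CPM use the TMM library sizes, an SE is the log2 fold change divided by the root of the F statistic, and list levels use log2(CPM + 0.5). On counts simulated for the VAT comparison (13654 genes, 100 changed 2-fold and 100 changed 4-fold), 58 and 99 of them were recovered with 4 false calls. For the difference between tissues (14951 genes) 27 and 83 were recovered with 6 false calls. In both, the changed genes were drawn only from genes above a minimum mean level that lay over the floor.

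Gene lists, members and tests were chosen with earlier results of these data known. Named genes are, in each direction, the 15 with the smallest p among called genes with a fold of 2 or more, a mean of 3 log2 CPM or more and arms that do not overlap; in each list the 6 with the smallest p; the 4 most abundant markers per list of another cell type; 36 fixed genes; and list members whose promoter held a motif searched for their list. Some genes that this rule names are not reported here. The first group leaves out receptor segments, ribosomal protein genes, pseudogenes and predicted genes. Chosen after their values were seen were Iigp1, Gbp10, Gbp11, Gzmb, Nt5e, Il18r1, Itgae, Pdcd1, Capg, Cd200r1, Rgs1, Stat2, Mx1, H2-K1, H2-D1, B2m, Fasn, Actb, Coro1a, Klf2, Il7r, Nr4a2, Fosl2, Crem, Foxp1, Il4ra, Ly6c1, Erap1, Calr, Pdia3, Nlrc5 and markers of other cells given at or near 0. The alternatives tried were DESeq2 1.42.0, limma 3.58.1 voom, RLE normalization, testing with no filter, a fit of the compared libraries alone, the replicate number as a block, 2 covariates and each library left out in turn. The covariates were fitted for the VAT comparison only, not for the difference between tissues. No pairing of samples by the numbers in the titles was seen: deviations from the arm means in NCD and HFD libraries correlated at 0.041 for number 2 and -0.041 for number 3 over 9171 genes. With 2 NCD libraries these values mirror each other by construction, so they are 1 check. It cannot decide whether libraries of one number belong together.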

Additional observations from a re-analysis of the deposited data

Results flagged for a closer look

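The HFD effect differed between VAT and spleen at week 16 in 696 genes by a test of the difference itself (edgeR, adjusted p under 0.05), and 15 of 32 genes chosen for this test were among them. The VAT effect was above the spleen effect in 9. These were the interferon-linked genes Gbp2 (1.61 on the log2 scale), Ifih1 (1.78) and Rtp4 (3.82), the genes Ctss (3.31) and Ltb (1.46), and the resting lymphoid genes Ccr7 (3.31), Tcf7 (2.72), Lef1 (1.34) and Bach2 (4.56). The VAT effect was below in 6: the adipose Treg genes Il1rl1 (-2.05), Ccr2 (-2.12) and Areg (-2.70), the sterol genes Sqle (-1.88) and Srebf2 (-0.71), and the immediate early gene Egr1 (-2.69). Of the 15, the differences of Ctss, Ltb, Rtp4, Sqle and Egr1 kept their call in all 17 alternatives run. The covariates were not among these alternatives, so the tissue differences were not tested with them. A fit of the compared libraries alone ended the calls of Ccr7, Bach2, Lef1, Il1rl1, Ccr2, Areg and Srebf2. Leaving out VAT NCD replicate 2 ended those of Gbp2, Ifih1, Il1rl1, Areg and Srebf2, and leaving out VAT NCD replicate 3 those of Tcf7, Il1rl1 and Areg. Leaving out a spleen library ended those of Il1rl1 (NCD replicate 3 or HFD replicate 2), Ccr2 (HFD replicate 1) and Areg (NCD replicate 2 or 3 or HFD replicate 1). The Areg difference also lost its call with limma voom and without VAT HFD replicate 1, in all 8 of 17 alternatives, and that of Srebf2 with no filter.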

How the results depend on the processing

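The VAT comparison called 789 genes in a fit of the compared libraries alone (426 higher, 363 lower), 431 with the activation-gene covariate (221 and 210) and 125 with the B cell and MHC class II covariate (60 and 65). With 1 library left out, calls ranged from 643 to 1273 (248 to 566 higher, 374 to 707 lower). RLE normalization (1307), no filter (1434), DESeq2 (1544) and voom (1306) stayed within 1.5 times the main count. The share of higher genes was 46.7% and went to 38.6% without NCD replicate 3. As a block the replicate number gave 1293 calls (601 higher, 692 lower) and, for the difference between tissues, 721. Whether the numbers pair the samples is not known. The difference between tissues passed in 378 genes in a fit of the compared libraries alone (237 above, 141 below) and, with no filter, in 941 (515 above); DESeq2 gave 939, and with 1 library left out the count ranged from 386 to 762 (198 to 364 above, 182 to 418 below). Of the 154 genes whose change is given, none changed sign under any of these fits; calls lost with another tool, filter, block or set of libraries are named above, and those lost with a covariate are given above as counts. Depth limits the low genes, since the floor was 0.497 to 0.675 CPM. In the simulation 58 of 100 2-fold changes were recovered in VAT. Its changed genes were drawn only above a minimum mean level, so recovery of low genes was not measured.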

Other observations

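Clock genes changed in both directions. Of 18 tested clock genes 3 fell and 1 rose (median -0.35). Nr1d1, the clock repressor REV-ERBα, was at 35.9 and 29.1 against 6.07, 10.4 and 8.77 CPM, a fall of 1.95 ± 0.33 (edgeR adjusted p = 2.39e-04), and Hlf, a clock output factor, at 20.9 and 34.5 against 1.86, 10.3 and 6.52 (-2.15 ± 0.47, adjusted p = 0.00343); Rora, given above, was the third to fall. Bhlhe40, a repressor that is also induced by hypoxia and by T cell activation, rose from 64.8 and 45.1 to 405, 341 and 325 CPM (2.70 ± 0.52, edgeR adjusted p = 0.00276). The core genes Clock (43.2 and 54.3 against 40.7, 56.3 and 47.2 CPM) and Arntl (113 and 131 against 83.2, 107 and 109 CPM) were not called. The hour of sampling is not given in the labels, so its part was not tested. With 1 library omitted at a time, NCD replicate 3 ended the calls of Hlf (-1.75) and Bhlhe40 (2.46). Among the other fits, in a fit of the compared libraries alone Hlf lost its call.

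Among 23 genes of glycolysis and hypoxia 2 rose and 2 fell. Hif1a, the hypoxia-regulated transcription factor, was at 307 and 314 against 701, 624 and 571 CPM and rose by 1.03 ± 0.18 (edgeR adjusted p = 3.06e-04), and the lactate exporter Slc16a3 at 20.9 and 20.4 against 72.9, 50.01 and 41.2 (1.41 ± 0.26). The other called genes fell: Ndrg1 was at 181 and 189 against 66.3, 91.6 and 79.2 CPM (-1.23 ± 0.15, edgeR adjusted p = 5.62e-06) and Egln3, an oxygen sensor gene, at 142 and 139 against 40.8, 98.9 and 68.1 (-1.01 ± 0.25). Of 18 insulin, IGF and adipokine receptor genes and their signalling, Igf1r, the IGF-1 receptor gene, rose from 7.50 and 19.6 to 58.4, 53.8 and 72.2 CPM (2.19 ± 0.33, edgeR adjusted p = 7.50e-05), and Foxo1, a target of that pathway, is given above. Of 19 genes of endoplasmic reticulum stress Atf6, Herpud1 and Dnajb9 fell, by 0.93 ± 0.17, 0.59 ± 0.11 and 0.68 ± 0.18. Cdkn1a, the cell cycle inhibitor p21, was the only one of 14 p53 targets called, at 256 and 232 against 77.4, 113 and 119 CPM (-1.24 ± 0.20). Tyms, a thymidylate synthesis gene, was the only one of 29 cell cycle genes called, at 33.4 and 38.7 against 85.4, 58.1 and 47.7 CPM (0.83 ± 0.25). The called shares of the insulin, p53 and cell cycle lists were 11.1%, 7.14% and 3.45%, beside 9.24% of all genes tested. Summed cell cycle levels were 1801 and 2523 CPM with NCD and 3963, 1893 and 1896 with HFD. In fits without 1 library, NCD replicate 2 ended the calls of Egln3 (-1.01), Dnajb9 (-0.73) and Tyms (0.71), NCD replicate 3 ended the calls of Egln3 (-1.04), Dnajb9 (-0.65) and Tyms (0.93), HFD replicate 1 ended the call of Tyms (0.55) and HFD replicate 3 ended that of Dnajb9 (-0.58). In a fit of the compared libraries alone Egln3 and Tyms lost their calls; with limma voom Tyms lost its call; with the replicate number as a block Tyms lost its call.

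Of 29 genes of oxidative phosphorylation edgeR, DESeq2 and limma voom called 0, with 2 at an unadjusted p under 0.05 (edgeR), and the summed level was 5775 and 6200.4 CPM with NCD and 5926, 5475 and 5479.7 with HFD. Of 22 Myc and ribosome biogenesis genes the same tools called 0, with 3 at an unadjusted p under 0.05 (edgeR).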
